A study of Rattus norvegicus with 4 samples.

Results

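The analysis followed 5 genes of the integrated stress response in rat MMQ cells exposed to UNC9994, namely Atf4 (ENSRNOG00000017801), Atf3 (ENSRNOG00000003745), Ddit3 (ENSRNOG00000006789), Trib3 (ENSRNOG00000007319) and Asns (ENSRNOG00000007546). They were taken by Ensembl ID, and these 5 of the 33832 IDs in the expression table carry the symbols that the selection assigned to them, since the files themselves give IDs only. MMQ is a prolactin-secreting line derived from a rat pituitary tumour, and UNC9994 is, per the labels, an agonist of DRD2, the receptor through which dopamine acts on lactotrophs. The 4 groups were cells given 15 µM UNC9994 for 12 h, 15 µM UNC9994 for 24 h, DMSO vehicle for 12 h and DMSO vehicle for 24 h, all grown in the same medium with fetal bovine and horse serum. Each group was 1 poly(A)-selected RNA-seq library, so no group had a replicate and cultures, libraries and conditions cannot be told apart. The reads assigned to genes, as recovered from FPKM, numbered 17433867 to 21728374 per library.

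In the integrated stress response, kinases that sense different stresses phosphorylate the translation initiation factor eIF2. General translation then slows while the mRNA of ATF4 is translated more efficiently, so that ATF4 protein can rise with little change in its mRNA. ATF4 is a bZIP transcription factor that induces genes of amino acid supply, such as asparagine synthetase (Asns), further bZIP factors, such as ATF3 and CHOP (the product of Ddit3), and the pseudokinase TRIB3, which binds ATF4 and limits its activity. ATF4 and C/EBP proteins bind a composite sequence, the C/EBP-ATF response element.

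RefSeq promoter windows, from 250 bases before to 50 bases after the gene start in build GRCr8, were found for 4 of the 5 genes: Atf4, Ddit3, Trib3 and Asns. They were searched on both strands for TGATGNAA, the core of the C/EBP-ATF response element, which 3.98% of all 33469 windows of this length contain, and for TGACGTCA, the CRE/ATF site, which 1.83% contain. TGACTCA, an AP-1 site present in 4.63% of windows, and CCAAT, the CCAAT box present in 37.5%, were added after the windows had been read. The windows of Trib3 and Ddit3 are shown because these 2 genes had the largest responses to UNC9994 at 12 h. Capitals mark the matches: in Trib3 the response element core, read on the other strand as TTACATCA, from 21 to 14 bases before the gene start, and in Ddit3 the AP-1 site, from 241 to 235 bases before it, and the CCAAT box, read on the other strand as ATTGG, from 76 to 72 bases before it. No match overlapped another. The Trib3 window lies at chr3:161275484-161275783 on the minus strand, and the Ddit3 window at chr7:65001445-65001744 on the plus strand.
Trib3: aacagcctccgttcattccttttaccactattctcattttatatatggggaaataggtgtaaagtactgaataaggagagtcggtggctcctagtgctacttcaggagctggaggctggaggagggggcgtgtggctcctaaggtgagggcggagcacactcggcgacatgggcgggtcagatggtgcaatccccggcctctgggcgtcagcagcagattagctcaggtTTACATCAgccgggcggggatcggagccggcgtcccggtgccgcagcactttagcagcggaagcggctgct
Ddit3: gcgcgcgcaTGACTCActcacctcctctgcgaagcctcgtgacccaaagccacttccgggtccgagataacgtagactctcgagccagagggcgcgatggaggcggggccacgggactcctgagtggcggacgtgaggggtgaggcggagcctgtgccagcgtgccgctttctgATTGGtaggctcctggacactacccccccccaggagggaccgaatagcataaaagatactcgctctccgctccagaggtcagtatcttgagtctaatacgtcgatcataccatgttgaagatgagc

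The windows of Atf4 (chr7:113684431-113684730, plus strand) and Asns (chr4:36769366-36769665, minus strand) held none of the 4 sequences. The GC content of the windows was 58.0% for Trib3, 60.0% for Ddit3, 55.7% for Atf4 and 67.3% for Asns, against a median of 51.7% over all windows. A match describes the letters of the window only, and factor binding was not measured here. Only exact matches inside these windows were searched, so an absent match says nothing about sequence outside them or inexact forms of a site.

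The 5 genes spanned a wide range of expression. FPKM counts fragments per kilobase of the gene model relative to a divisor set for each library, and is therefore a level per length. Atf4 averaged 222.5 FPKM over the 4 libraries, rank 311 of the 14056 IDs tested, followed by Asns with 95.7 FPKM (rank 838), Ddit3 with 42.1 FPKM (rank 2220), Trib3 with 29.5 FPKM (rank 3259) and Atf3 with 2.04 FPKM (rank 11335). The order was the same in every library, and the nearest neighbours were Ddit3 and Trib3 in UNC9994 at 12 h, with 57.0 and 53.5 FPKM. Behind these values stood 6741 to 10844 reads for Atf4, 2869 to 5561 for Asns, 490 to 1199 for Ddit3, 322 to 2353 for Trib3 and only 63 to 196 for Atf3, so Atf3 had the widest counting intervals.

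All 5 genes had their highest value in the UNC9994 library at 12 h. Each was higher with the drug than with vehicle at that time. How many of all IDs share either trait was not counted. The fold differences at 12 h ran from 1.42 for Atf4 to 6.44 for Trib3, and every 95% counting interval lay above 1, as it did for 29.0% of the 10810 IDs compared at 12 h. At 24 h the ratio was smaller for Trib3, Ddit3, Atf4 and Asns, and for Asns it was below 1. Intervals of the ratios are exact binomial, computed from the reads, and cover counting error only, not the spread between cultures. Both arms moved: in 4 of the 5 genes the vehicle value was higher at 24 h than at 12 h, as in 46.1% of IDs, and in all 5 the drug value was lower at 24 h than at 12 h, as in 47.9% of IDs.

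**Figure D1:**
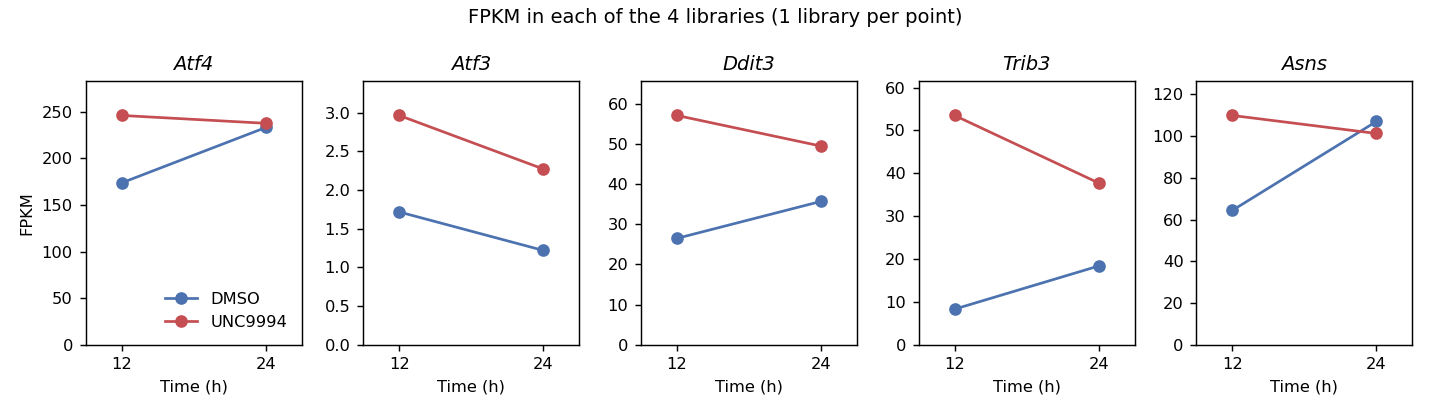
FPKM (vertical axes, from 0) against time in hours for each gene, with 1 library per point, blue for DMSO and red for UNC9994. The UNC9994 value at 12 h is the highest point in every panel, and the DMSO and UNC9994 points at 24 h lie close together for Atf4 and cross for Asns.

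Among the transcription factors, Atf4 itself stood at 173.6 FPKM in DMSO at 12 h and 233.0 in DMSO at 24 h. In UNC9994 it was at 246.0 FPKM at 12 h and 237.5 at 24 h. ATF4 protein was not measured. The DMSO library at 12 h was thus low and the other 3 libraries lay together. Both drug values were above both vehicle values, though drug and vehicle nearly met at 24 h. The 12 h ratio of UNC9994 to DMSO was 1.42 (95% counting interval 1.37 to 1.46). The 24 h ratio was 1.02 (0.990 to 1.05), not separated from 1 by counting error. Vehicle at 24 h exceeded vehicle at 12 h by 1.34-fold (1.30 to 1.39).

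Ddit3, which encodes CHOP, a factor of the late stress response linked to cell death, was at 26.5 FPKM in DMSO at 12 h, 35.7 in DMSO at 24 h, 57.0 in UNC9994 at 12 h and 49.4 in UNC9994 at 24 h. Both drug libraries were above both vehicle libraries. How common this order was among all IDs was not counted, here or for the other members. Its 12 h ratio was 2.16 (1.94 to 2.40), its 24 h ratio was 1.39 (1.25 to 1.54), and vehicle differed 1.35-fold between the times (1.19 to 1.52).

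Atf3, a bZIP factor that acts mostly as a repressor and is induced by many stresses, was at 1.72 FPKM in DMSO at 12 h, 1.22 in DMSO at 24 h, 2.96 in UNC9994 at 12 h and 2.27 in UNC9994 at 24 h. Both drug libraries were again above both vehicle libraries, at a level near the low end of the tested IDs. The 12 h ratio was 1.73 (1.35 to 2.22) and the 24 h ratio 1.86 (1.38 to 2.55). Atf3 was the only member whose vehicle value was lower at 24 h than at 12 h, at 0.710 of it (0.510 to 0.983).

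Trib3, the pseudokinase that restrains ATF4, varied most. It was at 8.31 FPKM in DMSO at 12 h, 18.4 in DMSO at 24 h, 53.5 in UNC9994 at 12 h and 37.7 in UNC9994 at 24 h. The 2 drug libraries stood above the 2 vehicle libraries, and the 4 values spanned 6.44-fold. The 12 h ratio was 6.44 (5.73 to 7.25), rank 27 of 10810 IDs ordered from high to low. The 24 h ratio was 2.05 (1.87 to 2.25), rank 133 of 10785. Trib3 in vehicle was 2.21-fold higher at 24 h than at 12 h (1.93 to 2.54), and in UNC9994 it was 1.42-fold lower at 24 h (1.33 to 1.51).

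Asns, the enzyme that makes asparagine from aspartate and glutamine, was at 64.4 FPKM in DMSO at 12 h, 107.0 in DMSO at 24 h, 109.9 in UNC9994 at 12 h and 101.3 in UNC9994 at 24 h. As for Atf4, the DMSO library at 12 h was low and the other 3 were close. Unlike for Atf4, the groups overlapped, with DMSO at 24 h above UNC9994 at 24 h. The 12 h ratio was 1.71 (1.63 to 1.79) and the 24 h ratio 0.946 (0.908 to 0.986). Vehicle at 24 h was 1.66 times vehicle at 12 h (1.59 to 1.74).

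**Figure D2:**
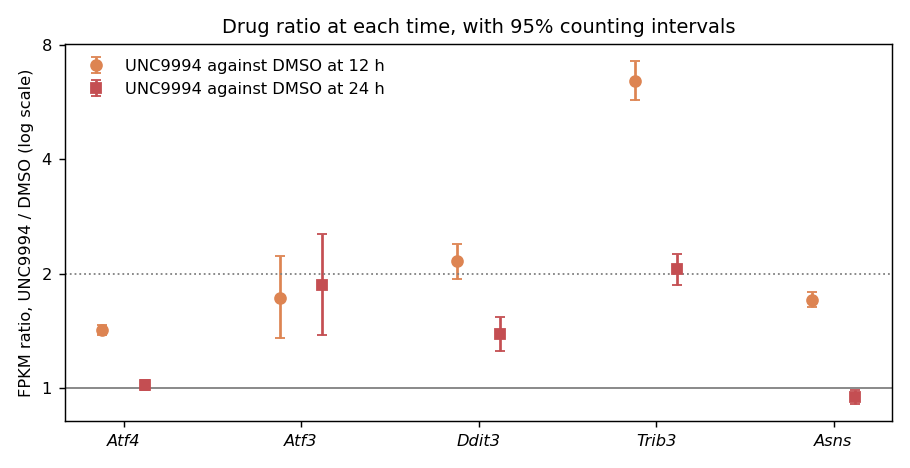
Ratio of FPKM in UNC9994 to DMSO (vertical axis, log scale) at 12 h (circles) and 24 h (squares) for each gene. Bars are 95% counting intervals from the reads of 1 library per condition, the solid line marks a ratio of 1 and the dotted line a ratio of 2. Trib3 is at 6.44 and 2.05, Ddit3 at 2.16 and 1.39, and the Asns square is below 1.

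Counts of 2-fold differences put these ratios beside the rest of the transcriptome, among IDs with a CPM (reads scaled to library size) of at least 5 in 1 library of the pair, a floor that all 5 genes passed. At 12 h, 2 of the 5 genes (Trib3 and Ddit3) were at least 2-fold higher with UNC9994, against 1.93% of 10810 IDs. The median log2 ratio of the 5 genes was 0.79, and that of all IDs was -0.022. At 24 h, 1 of the 5 (Trib3) was at least 2-fold higher, against 1.37% of 10785 IDs, with a median log2 ratio of 0.47 for the 5 genes and -0.010 for all IDs. Atf3 ranked 360 at 12 h and 206 at 24 h, Ddit3 163 and 798, Asns 380 and 6544, and Atf4 863 and 4740. In vehicle, 1 of the 5 (Trib3) was at least 2-fold higher at 24 h than at 12 h, against 0.44% of 10682 IDs, and the median log2 ratio was 0.43 for the 5 genes and -0.018 for all. These comparisons share libraries and are not independent of each other.

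**Figure D3:**
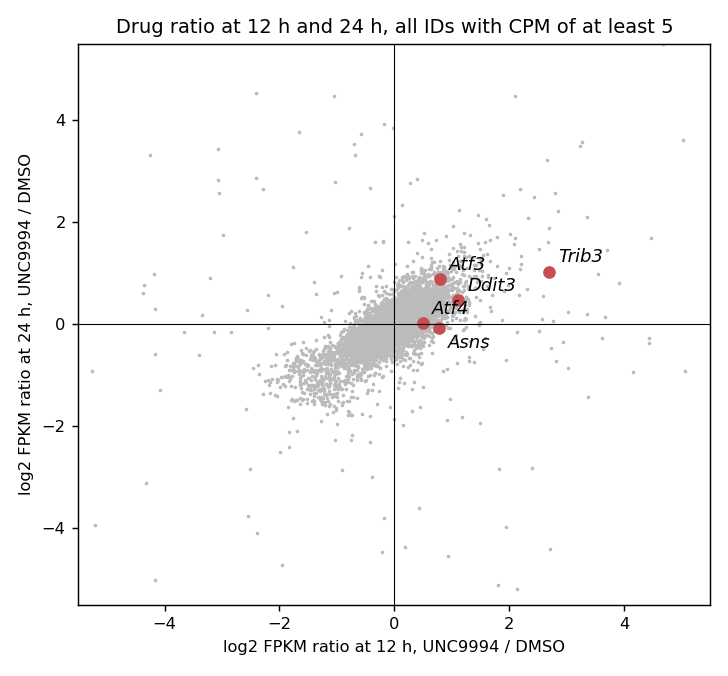
Log2 ratio of FPKM in UNC9994 to DMSO at 24 h (vertical axis) against that at 12 h (horizontal axis) for 10952 IDs with a CPM of at least 5 in 1 or more libraries (grey points, 5 of which lie outside the axes), with the 5 genes in red. All 5 genes lie to the right of 0, Atf4 and Asns lie near 0 on the vertical axis, and Trib3 stands farthest to the right.

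The difference between the log2 ratios at 24 h and at 12 h was computed for each gene. It was -1.65 for Trib3 (95% counting interval -1.86 to -1.43), -0.85 for Asns (-0.94 to -0.76), -0.64 for Ddit3 (-0.85 to -0.43) and -0.48 for Atf4 (-0.54 to -0.41). For Atf3 it was 0.11 (-0.44 to 0.66), an interval that includes 0. Intervals of this difference come from a normal approximation to the counting error of the reads, not from the exact binomial. The interval lay below 0 in 4 of the 5 genes, against 16.2% of 10952 IDs. The ratio was smaller at 24 h by 2-fold or more in 1 of them, Trib3, against 1.1% of these IDs. The median over all IDs was 0.030. With 1 library per condition it cannot be tested.

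The levels of the other genes relative to Atf4 separated the members further. Ddit3 FPKM was 15.2% of Atf4 FPKM in DMSO at 12 h and 15.3% in DMSO at 24 h, and 23.2% and 20.8% in UNC9994 at 12 h and 24 h. Trib3 was at 4.79% and 7.89% of Atf4 in DMSO, and at 21.8% and 15.9% in UNC9994. Both genes therefore took a higher share relative to Atf4 in each drug library than in either vehicle library. How often other IDs did so was not counted. Asns was at 37.1% and 45.9% in DMSO and at 44.7% and 42.6% in UNC9994, so its groups overlapped. Atf3 was at 0.989% and 0.523% in DMSO and at 1.21% and 0.957% in UNC9994, which overlapped as well.

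Asns was also the member at the smallest distance from Atf4 in profile over the 4 libraries. This was the Euclidean distance between centred log2(FPKM + 0.5) values, over 4 libraries and 11783 IDs with a mean of at least 1 on that scale. It rises with a difference in the size of the changes as well as in their pattern. Ddit3 and Trib3 placed the 4 libraries in the same order as Atf4 but changed more, while Asns and Atf3 placed them in other orders. Asns was at a distance of 0.23 (rank 594), Ddit3 at 0.53 (rank 6870), Atf3 at 0.71 (rank 9757) and Trib3 at 1.65 (rank 11616), against a median of 0.49. The nearest Ensembl ID was ENSRNOG00000002991, at a distance of 0.019, with 3.34 and 4.57 FPKM in DMSO at 12 h and 24 h and 4.89 and 4.67 FPKM in UNC9994. The single nearer ID, at 0.010, has no Ensembl number, and with only 4 libraries many IDs come close to any profile.

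A change common to both times was tested with limma on log2(FPKM + 0.5), with treatment and time terms over all 4 libraries and Benjamini-Hochberg adjustment over all 14056 IDs. In this fit 2 of the 5 genes, Trib3 and Ddit3, rose with UNC9994 at an adjusted p under 0.05, against 3.41% of IDs that rose. Trib3 rose by 1.82 ± 0.35 on the log2(FPKM + 0.5) scale (SE, 4 libraries, limma adjusted p = 0.041), the 23rd highest change of all, and Ddit3 rose by 0.78 ± 0.15 (limma adjusted p = 0.043). Atf3 was estimated at 0.67 ± 0.16 on the same scale (limma adjusted p = 0.066), Asns 0.34 ± 0.20 (0.31) and Atf4 0.26 ± 0.13 (0.25), and these 3 did not pass. The median of the 5 genes was 0.67, and that of all IDs was 0.00019. The fit has 1 residual degree of freedom, which is the difference of the response between the times, and Trib3, whose ratio differed most between 12 h and 24 h, had the largest standard error of the 5.

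Both calls lay close to the threshold. Trib3 passed in 7 of 14 alternative fits (limma adjusted p from 0.00016 to 0.33) and Ddit3 in 6 of 14 (0.0012 to 0.17). Neither passed with no filter on low reads, with no variance trend, with robust moderation (Trib3 0.33, Ddit3 0.078), with scaling to total reads (0.062 and 0.063) or with median-of-ratios scaling over the tested IDs (0.052 and 0.053). Atf3 passed with limma-voom (0.014) and with a stricter filter on low reads (0.026). Asns and Atf4 passed in none of the 14. With the time term dropped and the DMSO library at 12 h left out, the log2 fold changes were 1.27 for Trib3, 0.57 for Ddit3, 0.053 for Atf4 and -0.021 for Asns, and none passed. Without the DMSO library at 24 h they were 2.37, 0.99, 0.48 and 0.71, and Trib3 alone passed (0.038). Without the UNC9994 library at 12 h Trib3 had 1.57 and Ddit3 0.68, and without the UNC9994 library at 24 h Trib3 had 2.07 and Ddit3 0.88.

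**Figure D4:**
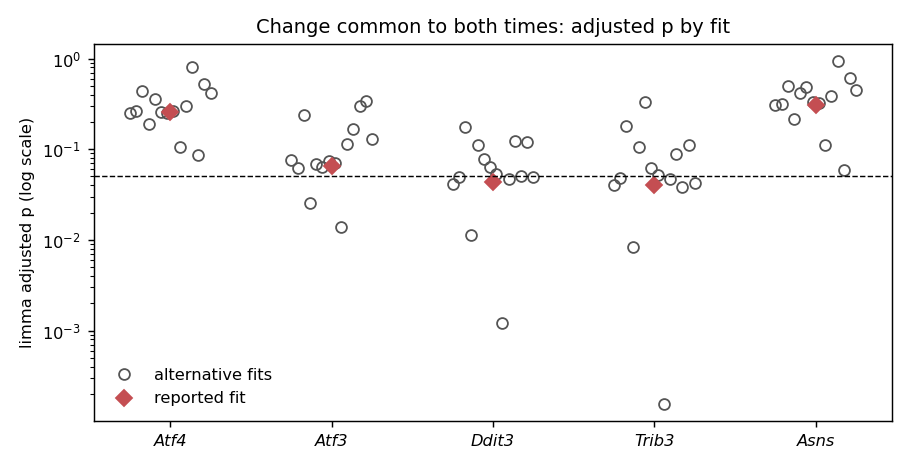
Adjusted p of the limma treatment term (vertical axis, log scale) for each gene, with the reported fit as a red diamond and 14 alternative fits as open circles. The dashed line marks 0.05. The diamonds of Ddit3 (0.043) and Trib3 (0.041) are just under the line, with circles on both sides of it, while every symbol of Atf4 and Asns is above it.

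The change with time common to both treatments passed the threshold for none of the 5 genes, in a fit that called 0% of the 14056 IDs, where 1041 had an unadjusted p under 0.05 and limma-voom called 132. The log2 changes from 12 h to 24 h were 0.31 ± 0.20 for Asns (limma adjusted p = 0.79), 0.30 ± 0.35 for Trib3 (0.88), 0.19 ± 0.13 for Atf4 (0.81), 0.11 ± 0.15 for Ddit3 (0.91) and -0.34 ± 0.16 for Atf3 (0.71). With limma-voom on the reads the change was 0.053 for Trib3 and 0.054 for Ddit3. For Asns, Trib3, Atf4 and Ddit3, the change with time averages a higher value at 24 h in vehicle with a lower one in UNC9994.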

How the data were processed

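RNA was measured once per treatment and time, in 4 libraries. The deposited values are FPKM, per the file headers, although the table of the series is named as raw counts. The submitters' processing notes list HTSeq, Bowtie2, TopHat2 (version 2.0.7), CASAVA and build Rnor_6.0, with roles, annotation and strand setting not given in the sources used here. How reads shared between overlapping or near-identical genes were assigned is therefore not known.

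Of 35042 rows, 1209 repeats and 1 truncated ID, all at 0, were removed. Read numbers were recovered as the whole numbers that fit FPKM, gene model length and 4 library divisors with a tolerance of 0.001 reads and a relative tolerance of 1e-08. This succeeded for all 16009 IDs that were above 0 throughout, against 1 of 500 IDs disturbed at random by up to 1%. The divisors were proportional to median-of-ratios size factors of these reads. Recovered totals were 95.6% to 99.6% of the divisors. Between 13639 and 14092 IDs had 10 or more reads in a library.

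IDs with at least 10 reads in at least 2 libraries were tested, all 5 members among them. The fit used limma 3.58.1 (R 4.3.3) with a pseudocount of 0.5, which lowers the fold changes of weakly expressed genes, a prior variance that follows expression and 4.48 prior degrees of freedom. It and the read recovery were tested on simulated data. In the simulation of the fit both UNC9994 libraries changed by the same factor, so a response that differs between the times was not covered. The p-values of the fit rest on the difference of the response between the times, moderated over all tested IDs. They do not measure the spread between replicate cultures. Ratios at a single time come from FPKM without a pseudocount, with Clopper-Pearson intervals from the reads.

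The members, gene lists, tests and settings were chosen with earlier results of these data known. The named genes are the 5 members and the IDs nearest to Atf4 in profile. The reference table of 47357 genes (GRCr8) gives an Ensembl ID for 0 of them, so the 8 pathway lists (84 symbols) and the cell type markers (19 symbols), which would have checked the identity of the line, are not analysed here.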

Additional observations from a re-analysis of the deposited data

Results flagged for a closer look

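Asns was higher with UNC9994 than with DMSO at 12 h (109.9 against 64.4 FPKM), a log2 ratio of 0.77. At 24 h it was slightly lower (101.3 against 107.0 FPKM), a ratio of 0.946 (counting interval 0.908 to 0.986). That log2 ratio, -0.080, ranked 6544 of 10785 IDs from high to low, and the median over all IDs was -0.0105. The 24 h value was therefore small and near the middle of the list, and a reversal between the times was not tested. The log2 ratio at 24 h minus that at 12 h was -0.85. Each time holds 1 library per treatment, and this difference was not tested.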

How the results depend on the processing

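The labels give no replicate numbers, so no block beyond the time term, which pairs drug and vehicle at each time, was fitted. With that term dropped and all 4 libraries kept, 851 IDs were called, Trib3 and Ddit3 among them (limma adjusted p = 0.047 for each). Of 70 alternative values for the members' common change, 52 kept direction and side of the threshold, 15 lost the call, 2 gained it and 1 reversed. Trib3 lost its call at 1.82 with no filter, no variance trend, robust moderation and median-of-ratios scaling over tested IDs, and at 1.84 with total-read scaling. Ddit3 lost its call at 0.78 in the same first 4 fits and at 0.80 with total-read scaling. In these 5 fits 0 members were called, while 0 IDs were called with no filter and with no variance trend, 1493 with robust moderation, 990 with median-of-ratios scaling and 839 with total-read scaling. Atf3 gained a call at 0.67 with a filter at a CPM of at least 5 and at 0.83 with limma-voom. Leaving out 1 library with no time term, where the lone library is assumed to vary like the other treatment, gave 0 to 2 members called and 86 IDs without DMSO at 12 h, 116 without DMSO at 24 h, 443 without UNC9994 at 12 h and 782 without UNC9994 at 24 h. The log2 fold changes ran from 1.27 to 2.37 for Trib3 (1.57 without UNC9994 at 12 h), 0.57 to 0.99 for Ddit3 (0.68 without UNC9994 at 12 h), 0.48 to 0.85 for Atf3, 0.053 to 0.48 for Atf4 and -0.021 to 0.71 for Asns, which reversed without the DMSO library at 12 h.

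The number of IDs called for the common change (1204) became 0 with no filter (3795 at an unadjusted p under 0.05), 0 with no variance trend (3660), 1979 with the CPM filter and 2752 with limma-voom. For time, where all alternatives were added after seeing the data, it was 2 with a pseudocount of 0.1, 23 with the CPM filter, 5 with robust moderation and 132 with limma-voom. IDs past 2-fold numbered 1082 at 12 h, 808 at 24 h and 753 for the difference between times with a CPM of at least 1, and 365, 214 and 95 with at least 20. Total-read scaling moved the Atf4 log2 ratio at 12 h to 0.56 and its difference between times to -0.54; the other 58 of 60 values of this kind stayed inside their counting intervals. The cause of each shift was not tested.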
